A study of Mus musculus with 3 samples.

Results

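The interferon response genes described here are 37 genes that cells switch on when an interferon binds its receptor, followed by cell class through dorsal root ganglia (DRGs) of naïve mice and of mice with a nerve injury. They were picked by name as known interferon-induced genes, with their levels in these same cells already seen, so that every level and ratio below is a description of the members and supports nothing about how they were chosen. Of the 37 symbols, 36 were found among the 31053 genes of the deposited matrices and Mx2 was not. The list holds 25 genes induced mainly by type I interferon, of which 24 were measured, 7 guanylate-binding and immunity-related GTPases induced most strongly by interferon gamma, and 5 others (the chemokines Cxcl9 and Cxcl10, the transcription factor Irf1, and the immunoproteasome subunits Psmb8 and Psmb9).

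The study sequenced 3 single-cell libraries made with a 3′ kit from cells of lumbar DRGs L3 and L4 of both sides of wild-type male C57BL/6J mice aged 13 weeks. The naïve library came from untreated mice, and the other libraries came from mice 7 and 14 days after spared nerve injury (SNI), in which some branches of the sciatic nerve are cut and another is spared, made in both hindlegs. Each library pooled 8 DRGs of 2 mice, which cannot be separated, and no sham-operated group was among the samples. With 1 library per condition there is no replicate check and no test across conditions, and the injury cannot be told apart from any other difference between the pools or libraries.

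Interferons are cytokines made on infection or on sensing of nucleic acids in the wrong place. Type I interferons (the alpha and beta interferons) bind the receptor made of Ifnar1 and Ifnar2, whose kinases Jak1 and Tyk2 pass the signal on. A transcription factor complex that holds Stat2 and Irf9 then binds interferon-stimulated response elements and switches on antiviral genes such as Isg15, Ifit1 and Bst2. Interferon gamma, which is made by T cells and natural killer cells, binds Ifngr1 and Ifngr2 and acts in part through Irf1, and it is the stronger inducer of the guanylate-binding proteins (Gbp) and of Igtp, Irgm1 and Iigp1. The programmes overlap widely, since Irf1 and most of the GTPases also answer to type I interferon. In the DRG the cells that could respond are the sensory neurons, the satellite glial cells (SGCs) wrapped around their somata, Schwann cells along the axons, endothelial and mural cells of vessels, fibroblasts and macrophages.

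The response elements named above can be seen in the start regions of the genes, which are shown here for 4 genes that lead the results and for the contrasting Igtp and Cxcl10. The sequences are from RefSeq, build GRCm38.p6 (mm10), and each runs 5′ to 3′ on the strand of its gene over the 250 bases before the transcription start, with capitals on letters that match GAAA, any 2 bases and GAAA, the core of the interferon-stimulated response element, on either strand. Isg15, a ubiquitin-like modifier, lies at chr4:156200819-156201068 on the minus strand, Ifit1, which binds foreign RNA, at chr19:34640639-34640888 on the plus strand, and Bst2 (tetherin), which holds budding virus at the cell surface, at chr8:71537473-71537722 on the minus strand. The GTPases are Gbp2 at chr3:142620413-142620662 and Igtp at chr11:58199306-58199555, both on the plus strand, and the window of the chemokine Cxcl10 is chr5:92348890-92349139 on the minus strand.
Isg15: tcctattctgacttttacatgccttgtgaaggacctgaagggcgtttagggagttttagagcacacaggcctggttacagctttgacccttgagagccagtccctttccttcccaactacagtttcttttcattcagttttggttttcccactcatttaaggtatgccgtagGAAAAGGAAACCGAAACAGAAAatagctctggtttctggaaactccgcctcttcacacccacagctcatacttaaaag
Ifit1: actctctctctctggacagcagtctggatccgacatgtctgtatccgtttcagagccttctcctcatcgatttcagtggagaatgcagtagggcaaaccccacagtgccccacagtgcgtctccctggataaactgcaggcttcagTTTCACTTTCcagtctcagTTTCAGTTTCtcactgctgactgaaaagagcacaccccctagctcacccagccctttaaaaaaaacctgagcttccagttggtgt
Bst2: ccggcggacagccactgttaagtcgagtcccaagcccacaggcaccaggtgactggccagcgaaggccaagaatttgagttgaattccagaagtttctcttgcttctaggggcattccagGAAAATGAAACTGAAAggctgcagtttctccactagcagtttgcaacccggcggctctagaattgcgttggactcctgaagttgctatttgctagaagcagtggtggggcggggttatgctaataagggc
Gbp2: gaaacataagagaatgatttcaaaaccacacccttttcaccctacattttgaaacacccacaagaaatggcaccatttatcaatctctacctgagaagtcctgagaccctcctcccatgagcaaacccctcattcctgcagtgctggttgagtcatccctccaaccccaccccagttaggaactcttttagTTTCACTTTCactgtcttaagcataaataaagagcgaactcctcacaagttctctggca
Igtp: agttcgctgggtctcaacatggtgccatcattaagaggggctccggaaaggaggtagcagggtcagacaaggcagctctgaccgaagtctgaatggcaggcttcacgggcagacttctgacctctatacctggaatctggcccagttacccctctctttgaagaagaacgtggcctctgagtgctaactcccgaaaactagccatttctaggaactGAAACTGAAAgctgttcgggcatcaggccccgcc
Cxcl10: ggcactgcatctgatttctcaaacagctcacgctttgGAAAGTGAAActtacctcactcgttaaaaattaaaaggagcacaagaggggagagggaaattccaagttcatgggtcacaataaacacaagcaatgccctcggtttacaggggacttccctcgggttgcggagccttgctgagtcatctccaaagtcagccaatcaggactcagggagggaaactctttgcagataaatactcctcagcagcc
Isg15 carried 3 overlapping matches that begin 78 bases before the start, Ifit1 and Bst2 carried 2 matches each, and Gbp2, Igtp and Cxcl10 carried 1 each in the stretch shown. Promoters were found for 27 of the 37 members, and 14 of these 27 (51.9%) held the motif on either strand in the window from 250 bases before to 50 bases after the start, against 3.99% of all 27025 genes with a promoter in the table. By list, 8 of 17 type I genes, 5 of 5 GTPases and 1 of 5 other members held it. The motif TTCNNNGAA, the core of the gamma-activated site, was searched on both strands in the same windows and stood in 7 of 27 members (25.9%) and in 9.55% of all genes. A match is a stretch of letters and not a measured binding site.

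The files held 11937 barcodes with 82001533 unique molecular identifiers (UMIs, each counting 1 captured RNA molecule once). After the filter and removal of doublets 9572 cells were used, namely 3123 naïve, 2650 day 7 and 3799 day 14 cells with medians of 3059, 3972 and 4174 UMIs. The pairs of libraries shared 1, 6 and 2 cell barcodes. Cells were gated into 10 classes by marker genes, and 69 of the 73 markers were highest in their own class. The 8 classes with at least 50 cells in each library are described, and lymphocyte-like and neutrophil-like cells were too few.

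In naïve ganglia the interferon genes were far from silent, and their level differed between classes. Levels are given as the UMIs of the gene or list per 1000000 UMIs of the class (CPM), and the values of the 24 type I genes are summed. The macrophage-like cells stood at 5759 CPM, the non-myelinating Schwann-like cells at 5358 and the endothelial-like cells at 4652. The SGC-like cells at 1885 CPM and the fibroblast-like cells at 1862 followed, and the myelinating Schwann-like cells at 951, the mural-like cells at 939 and the neuron-like cells at 896 CPM were lowest. By exact Poisson 95% intervals, which cover counting error only, neighbours in this order overlapped for macrophage-like and non-myelinating Schwann-like cells, for SGC-like and fibroblast-like cells, and for mural-like cells with both classes beside them, while the interval of neuron-like cells (876 to 916 CPM) lay below that of myelinating Schwann-like cells (921 to 982 CPM).

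**Figure D1:**
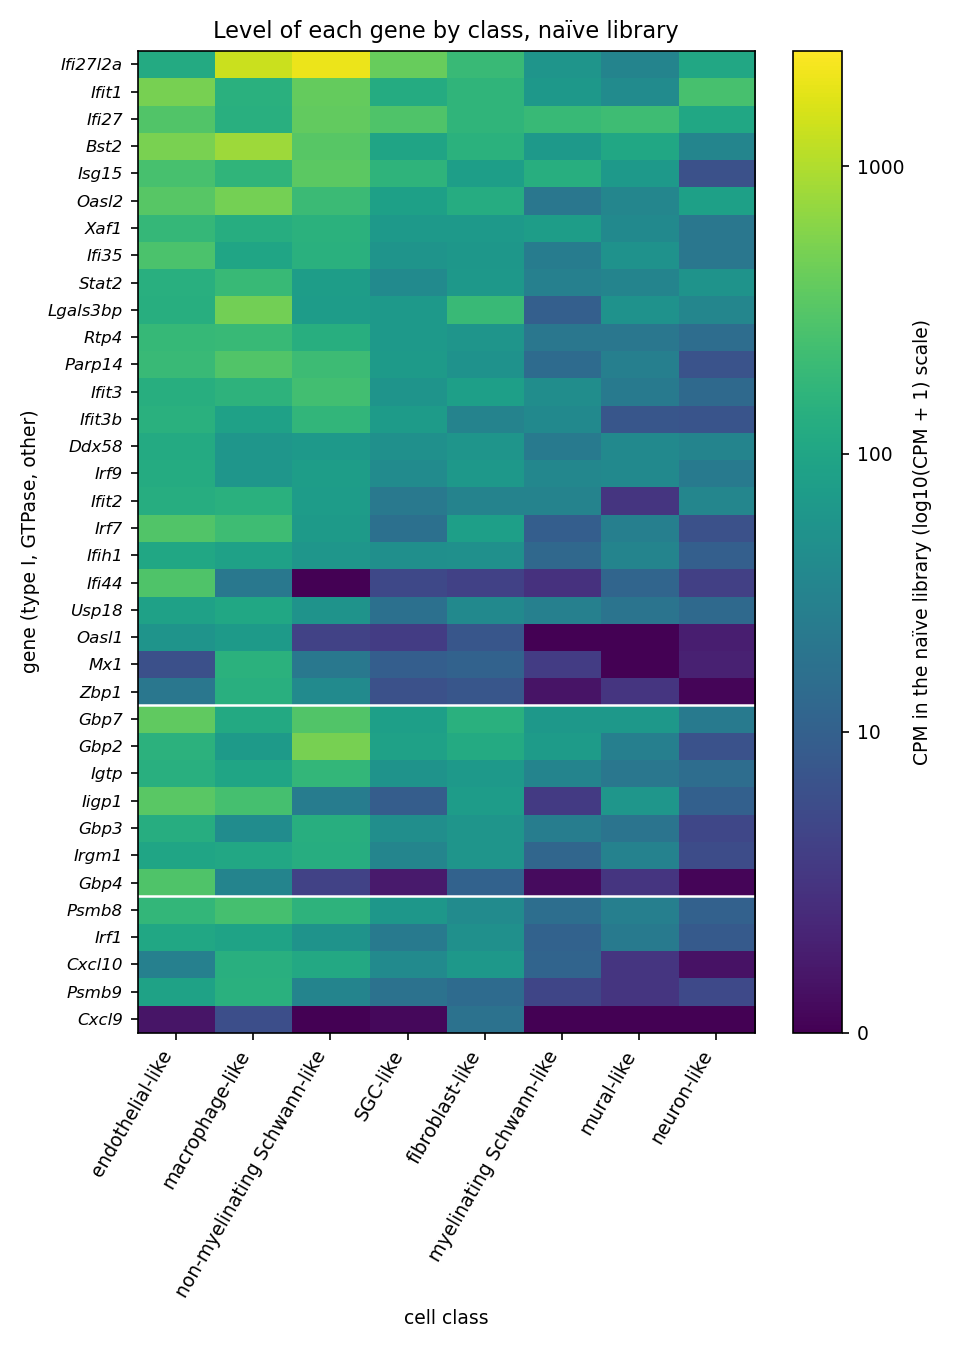
Level of interferon response genes in naïve cells of 8 classes, as CPM on a colour scale of log10(CPM + 1). Endothelial-like cells carry Bst2, Ifit1, Irf7 and Ifi44, and Bst2 is higher still in macrophage-like cells. Non-myelinating Schwann-like, macrophage-like and SGC-like cells are led by Ifi27l2a, and neuron-like cells by Ifit1.

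The classes also differed in which gene they used. Ifi27l2a, a small protein of the Ifi27 family, was at 2023 CPM in naïve non-myelinating Schwann-like cells and 1333 CPM in macrophage-like cells, but at 58.5 CPM in myelinating Schwann-like cells. Endothelial-like cells had 291 CPM of Ifi44, which was at most 21.9 CPM in the other 7 classes, and 287 CPM of Gbp4, which was at most 32.9 CPM in them. Neuron-like cells were led by Ifit1, at 255 CPM. Because a 3′ kit counts a molecule once whatever its length, such levels follow molecule numbers, apart from differences in capture between genes.

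Summed over the cells of a class, the type I genes stood below their naïve level in both injury libraries in all 8 classes. In SGC-like cells their summed level was 1885 CPM (10058 UMIs in 811 cells) in the naïve library, 927 CPM (4014 UMIs in 515 cells) at day 7 and 801 CPM (4553 UMIs in 700 cells) at day 14. Both injury values lay below the naïve value, with log2 ratios of -1.02 (-1.08 to -0.97) at day 7 and -1.24 (-1.29 to -1.18) at day 14. The intervals are exact 95% intervals of the ratio of 2 counts, cover counting error only, and so are narrower than the spread between animals would be. Both ratios use the same naïve library, so they are not independent of each other.

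**Figure D2:**
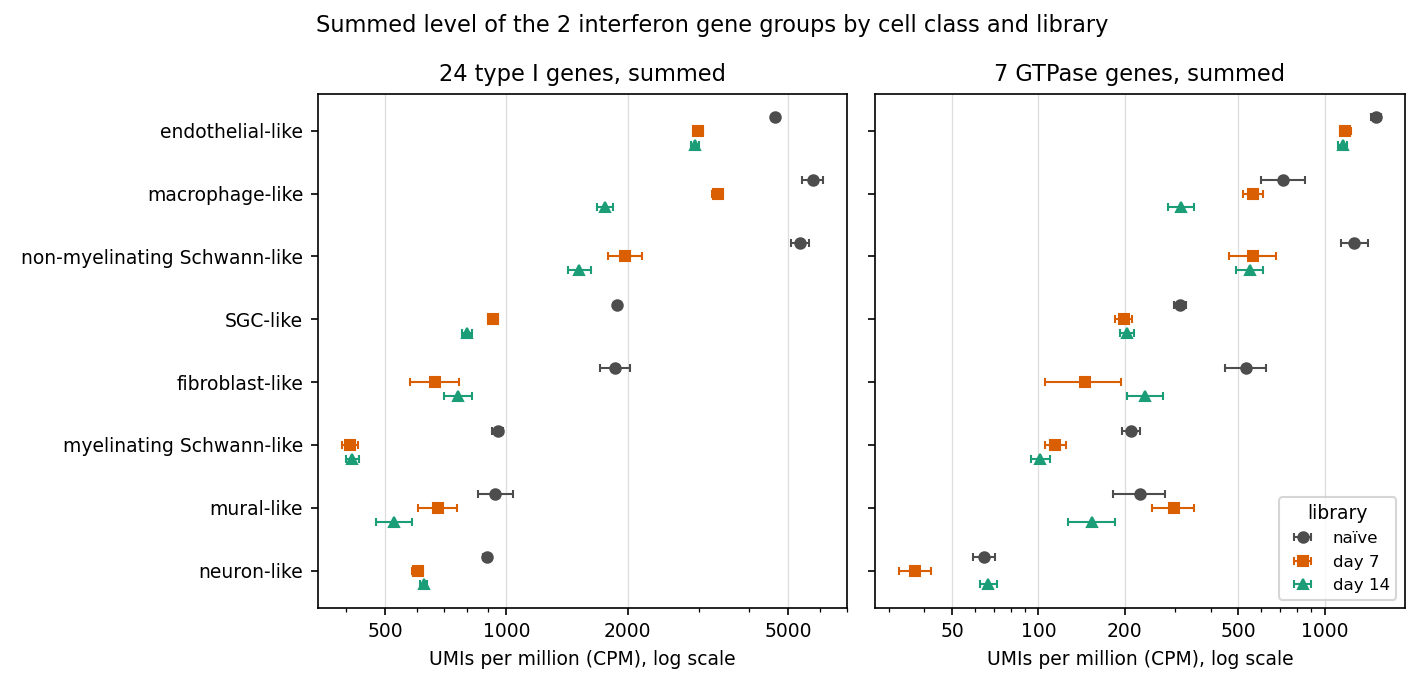
Summed CPM of the 24 type I genes and of the 7 GTPases in 8 classes, on log axes, with 1 point for each library and exact Poisson 95% intervals of the counts. In all 8 classes the naïve point of the type I genes lies above both injury points, whereas the GTPases keep this order in 6 classes and not in neuron-like and mural-like cells.

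Myelinating Schwann-like cells went from 951 CPM to 409 and 415 CPM, and non-myelinating Schwann-like cells from 5358 to 1971 and 1518 CPM. Fibroblast-like cells went from 1862 to 666 and 761 CPM. In these glial and connective classes the naïve level was more than 2 times each injury level. The step was smaller in the neuron-like cells (896, 603 and 623 CPM), the endothelial-like cells (4652, 2982 and 2941 CPM) and the mural-like cells (939, 676 and 527 CPM). Macrophage-like cells had 5759 CPM in the naïve library, 3344 at day 7 and 1755 at day 14. Over the 8 classes the naïve level was 1.39 to 2.80 times that of day 7 and 1.44 to 3.53 times that of day 14, and each of the 16 intervals lay below a log2 ratio of 0. How the ratios of the 8 classes differ from each other was not tested.

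The GTPases, which are the more gamma-induced list, had ratios above those of the type I genes in 6 of 8 classes at day 7 and in 8 of 8 at day 14. This order turned on both days in SGC-like cells with a stricter cell filter (GTPases -1.65 and -1.38, type I genes -1.15 and -1.14) and in myelinating Schwann-like cells as a mean over cells (GTPases -1.13 and -1.01, type I genes -1.03 and -0.96), and at day 14 in macrophage-like cells without the most abundant member of each list (GTPases -1.62, type I genes -1.60). In SGC-like cells they stood at 313, 199 and 205 CPM (log2 ratios -0.66 at day 7 and -0.62 at day 14), in endothelial-like cells at 1511, 1183 and 1155 CPM (-0.35 and -0.39), and in macrophage-like cells at 718, 562 and 316 CPM (-0.35 and -1.19). Each of these ratios was nearer to 0 than that of the type I genes in the same cells. Neuron-like cells had 64.7, 37.1 and 66.8 CPM, so that the day 14 value was near the naïve value, with an interval of the ratio from -0.11 to 0.21. At day 7 the neuron-like ratio of -0.80 was further from 0 than that of the type I genes, and so was that of fibroblast-like cells, which had 532, 145 and 236 CPM and ratios of -1.87 and -1.17. Mural-like cells had 226, 297 and 155 CPM, and the day 7 ratio of 0.39 became -0.46 with a stricter gate. With a filter on cells of 1000 or more genes and no more than 10% mitochondrial UMIs, which left as few as 14 SGC-like cells in a library, the SGC-like ratios were those just given, the ratio of non-myelinating Schwann-like cells at day 14 went from -1.21 to -1.98, and that of fibroblast-like cells at day 7 to -1.27.

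The balance between the lists was therefore not the same in the 3 libraries. In SGC-like cells there were 6.02 type I UMIs for each GTPase UMI in the naïve library, 4.66 at day 7 and 3.91 at day 14. The same order held in non-myelinating Schwann-like cells (4.22, 3.50 and 2.77) and in macrophage-like cells (8.02, 5.95 and 5.56), but not in myelinating Schwann-like (4.51, 3.57 and 4.09), mural-like (4.16, 2.28 and 3.41), endothelial-like (3.08, 2.52 and 2.55) or fibroblast-like cells (3.50, 4.59 and 3.22). Neuron-like cells had the highest ratio of all classes in each library (13.9, 16.2 and 9.33), and endothelial-like cells the lowest in the naïve library. A ratio between lists does not depend on the total UMIs of the class.

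Counted gene by gene, 15 of the 34 members with at least 20 UMIs over the naïve and day 7 SGC-like cells were at least 2-fold lower at day 7, where 0.828% of all genes tested in these cells were. At day 14 it was 15 of 34, beside 0.981% of all genes. The median member had a log2 ratio of -0.89 at day 7 and -0.85 at day 14, and the median of all genes was -0.00 and 0.02. Of the 50 genes with the lowest ratios in SGC-like cells, 10 at day 7 and 13 at day 14 were members. Since the members were chosen with these ratios known, the shares describe them and are no evidence of enrichment.

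**Figure D3:**
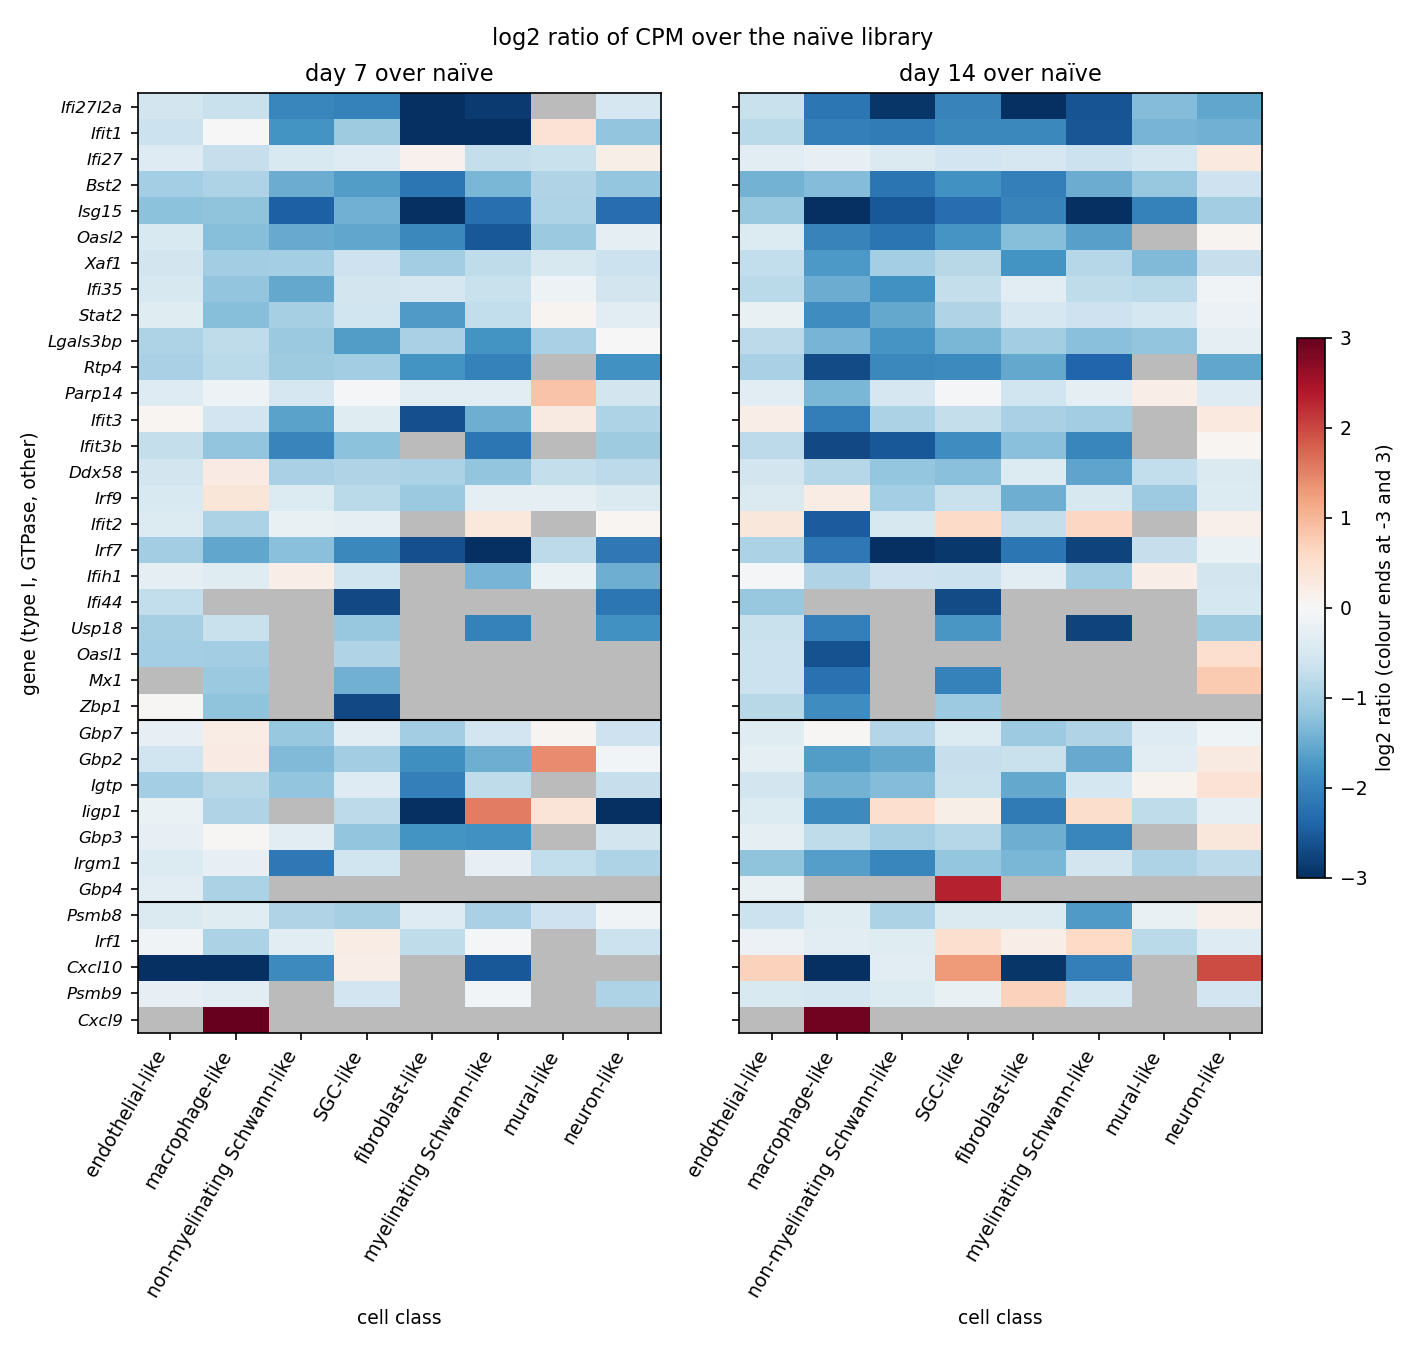
Log2 ratio of CPM over the naïve library for each member and class, day 7 on the left and day 14 on the right, on a colour scale from lower (blue) to higher (red), with grey where a gene had under 20 UMIs over both libraries. Isg15 and Bst2 are lower in all 8 classes on both days, whereas Parp14, Ifit2, Irf1 and Ifi27 are pale or mixed.

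In the other classes the counts of members at least 2-fold lower were as follows. In myelinating Schwann-like cells they were 16 of 30 at day 7 and 17 of 30 at day 14, where 1% and 1.07% of all genes were. The non-myelinating Schwann-like class (134, 78 and 165 cells) had 17 of 27 and 17 of 29 (all genes, 4.47% and 3.99%). In both Schwann-like classes more members were past 2-fold than not. In fibroblast-like cells 16 of 23 and 17 of 29 members were past 2-fold (all genes, 4.91% and 3.93%), and in endothelial-like cells 6 of 34 and 4 of 35 (1.66% and 1.63%). Mural-like cells had 1 of 20 and 7 of 21 (2.5% and 2.25%), and neuron-like cells 10 of 30 and 5 of 33 (1.83% and 1.45%). Macrophage-like cells had 11 of 35 at day 7 and 24 of 34 at day 14 (3.89% and 4.48%), the only class in which the count rose by more than 10 members between the injury days.

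Among the effector genes, Isg15 and Bst2 had intervals below 0 in all 8 classes on both days. Isg15 was at 159.5, 58.9 and 32.7 CPM in SGC-like cells of the naïve, day 7 and day 14 libraries, with log2 ratios of -1.44 (-1.65 to -1.23) and -2.29 (-2.52 to -2.06). It was at 134.5, 28.2 and 14.8 CPM in myelinating Schwann-like cells and at 164.5, 71.5 and 17.1 CPM in macrophage-like cells. In all 3 classes the day 14 library was the lowest. Bst2 was at 96.2, 30.2 and 27.3 CPM in SGC-like cells, at 525, 261 and 197 CPM in endothelial-like cells and at 795, 416 and 324 CPM in macrophage-like cells. In contrast to Isg15, Bst2 was nearly the same on both injury days in SGC-like cells.

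Ifi27l2a, the type I gene with the largest difference in CPM in SGC-like cells, was at 412, 102 and 104 CPM there, with log2 ratios of -2.02 (-2.17 to -1.87) and -1.99 (-2.13 to -1.86). In non-myelinating Schwann-like cells it was at 2023, 518 and 266 CPM and in macrophage-like cells at 1333, 834 and 298 CPM. Its interval lay below 0 in all 8 classes at day 14. Ifit1 had its highest UMI counts in neuron-like cells, where it was at 255, 112 and 93.7 CPM (log2 ratios -1.19 and -1.44), and it was at 124, 58.9 and 32.2 CPM in SGC-like cells. Only mural-like cells had more Ifit1 at day 7 than in the naïve library, at 57.7 against 42.8 CPM with an interval of the ratio from -0.47 to 1.37. Oasl2, related to the enzymes that sense double-stranded RNA, was at 85.5, 29.1 and 25.1 CPM in SGC-like cells and at 488, 201 and 121 CPM in macrophage-like cells. In neuron-like cells Oasl2 was at 85.7, 71.1 and 90.7 CPM, lower at day 7 (log2 ratio -0.27) and near its naïve level at day 14 (0.08). Ifit1 was lower on both days in the same cells.

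Xaf1, linked to cell death, and Lgals3bp, a secreted lectin-binding protein, had intervals below 0 in all 8 classes at day 14, and Rtp4, a chaperone of membrane receptors, was lower in each of the 7 classes where it had enough UMIs. Rtp4 was at 67.7, 32.8 and 17.9 CPM in SGC-like cells. Mx1, of a family of dynamin-like antiviral GTPases, is listed by RefSeq as a transcribed pseudogene in the mouse reference. Its transcripts were at 148, 68.6 and 31.5 CPM in macrophage-like cells and under 10 CPM in SGC-like cells. Ifit3 and Ifit3b are near-identical copies, as are Oasl1 and Oasl2 in part, so that the split of their reads is uncertain. In SGC-like cells the copies were lower together, Ifit3 at 57.0, 44.3 and 34.6 CPM and Ifit3b at 72.0, 30.7 and 19.9 CPM.

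Among the transcription factors, sensors and the feedback regulator of the list, Irf7, the factor that drives the later interferon alpha genes, was again below its naïve level in all 8 classes on both days. It was at 16.9, 4.39 and 2.29 CPM in SGC-like cells, with log2 ratios of -1.94 (-2.74 to -1.22) and -2.88 (-3.85 to -2.04), and at 300.4, 147 and 157 CPM in endothelial-like cells. Stat2 and Irf9, which stand in the complex that answers to type I interferon, moved by less, Stat2 at 42.0, 27.9 and 22.5 CPM and Irf9 at 42.5, 24.5 and 26.7 CPM in SGC-like cells. The RNA sensors Ddx58 (RIG-I) and Ifih1 (MDA5) were at 50.2, 27.0 and 21.1 CPM and at 47.6, 31.4 and 30.6 CPM there. Usp18, which removes Isg15 from proteins and blocks the type I receptor, was at 17.2, 7.85 and 5.10 CPM in SGC-like cells and at 29.0, 7.12 and 4.23 CPM in myelinating Schwann-like cells. All 6 of these genes were lower in SGC-like cells on both days, with intervals below 0.

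Among the GTPases Gbp2 and Gbp3 were the ones past 2-fold in SGC-like cells at day 7, at 86.6, 42.0 and 53.6 CPM for Gbp2 and 47.0, 20.8 and 25.9 CPM for Gbp3. Gbp7, the GTPase with the most UMIs, was at 81.2, 65.4 and 61.0 CPM there (log2 ratios -0.31 and -0.41) and at 367, 308 and 284 CPM in endothelial-like cells. Igtp, whose motif is shown above, was at 54.9, 42.0 and 34.8 CPM in SGC-like cells. Iigp1 in neuron-like cells had 86, 4 and 107 UMIs, so that it was nearly absent from the day 7 library alone. The immunoproteasome subunit Psmb8 was at 62.8, 31.4 and 46.6 CPM in SGC-like cells and Psmb9 at 18.4, 12.2 and 15.7 CPM, both lowest at day 7.

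Several members did not follow the common direction in some classes. Parp14, an ADP-ribosyltransferase, was level in SGC-like cells at 69.7, 67.2 and 66.6 CPM (log2 ratios -0.05 and -0.07). Its ratio was below 0 in 7 of 8 classes on each day, with the interval below 0 in 1 class at day 7 and 3 at day 14. Ifit2, a relative of Ifit1, was higher at day 14 in SGC-like cells, at 23.1, 18.9 and 34.3 CPM with a ratio of 0.57 (0.24 to 0.91), and in myelinating Schwann-like cells with a ratio of 0.62 (0.32 to 0.93), while in macrophage-like cells it was at 143, 73.4 and 25.2 CPM. Irf1, the factor of the gamma response, was at 23.6, 27.7 and 33.6 CPM in SGC-like cells, with a day 14 ratio of 0.51 (0.18 to 0.84). Over the classes with enough UMIs, Irf1 was lower in 6 of 7 at day 7, with the interval below 0 in 2. At day 14 it was lower in 5 of 8, with no interval below 0 and 2 above 0.

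**Figure D4:**
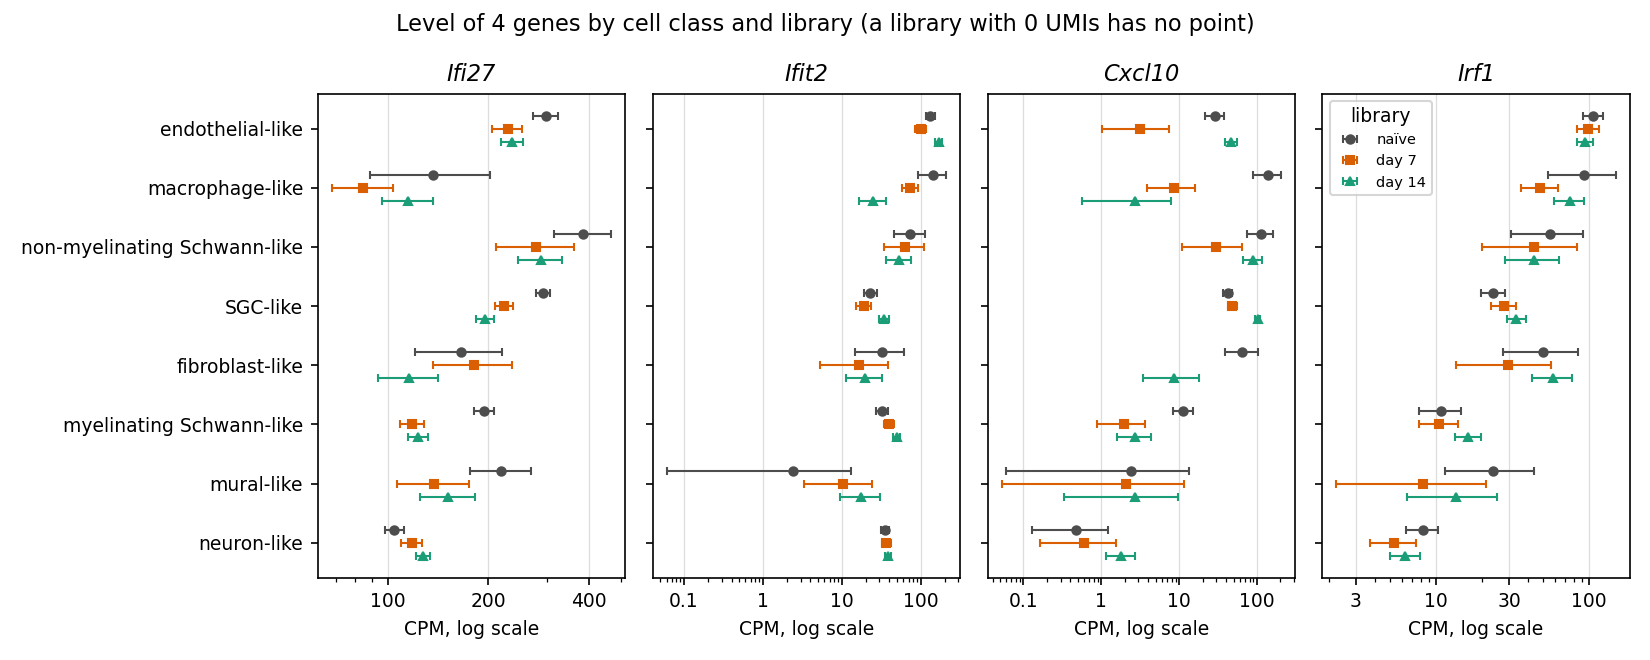
CPM of Ifi27, Ifit2, Cxcl10 and Irf1 in the 3 libraries for each class, on log axes with exact Poisson 95% intervals. Ifi27 is higher after injury in neuron-like cells (104.7, 118 and 128 CPM) and lower in SGC-like cells (292, 223 and 196 CPM), and Cxcl10 in SGC-like cells is highest at day 14 (102 CPM).

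Ifi27, the member with the most UMIs over all classes (11675), was at 292, 223 and 196 CPM in SGC-like cells and at 194.6, 119 and 124 CPM in myelinating Schwann-like cells. In neuron-like cells it was at 104.7, 118 and 128 CPM, higher after injury by log2 ratios of 0.17 (0.03 to 0.31) and 0.29 (0.17 to 0.41), although the day 7 interval took in 0 with TMM scaling (-0.02 to 0.26). Its neighbour Ifi27l2a was lower in the same neuron-like cells, at 109, 76.7 and 37.2 CPM. The genes lie next to each other on chromosome 12 on opposite strands, Ifi27 at chr12:103434211-103440239 on the plus strand and Ifi27l2a at chr12:103442167-103443680 on the minus strand (GENCODE vM21). RefSeq gives Ifi27l2a a longer span that reaches across Ifi27 (chr12:103433873-103443680, GRCm38.p6), and how the counting treated strand and overlap is not given in the sources used here.

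Cxcl10, the chemokine that attracts activated T cells, behaved unlike the type I genes in SGC-like cells, where it had 224, 208 and 580 UMIs (42.0, 48.0 and 102 CPM) and a day 14 ratio of 1.28 (1.06 to 1.51). Few cells carried it, namely 57, 47 and 83 cells, and the 1 cell with the most held 31, 45 and 186 of these UMIs. Without that cell in each library the day 14 ratio was 0.93. Without the SGC-like cells that held a UMI of a macrophage marker, the day 7 ratio went from 0.19 to -0.14, and at day 14 it was 1.498. In macrophage-like cells Cxcl10 went the other way, with 25, 9 and 3 UMIs, of which 17 naïve UMIs lay in 1 cell. In endothelial-like cells it had 51, 5 and 128 UMIs, of which 91 of the 128 lay in 1 cell. Cxcl9, a chemokine typical of interferon gamma, had 1, 77 and 45 UMIs in macrophage-like cells, and a single cell held 40 of the 77 and 41 of the 45. The chemokine values of these classes therefore rest on few cells, and in SGC-like cells too the 5 richest cells held 94 of 224, 101 of 208 and 296 of 580 Cxcl10 UMIs. In non-myelinating Schwann-like cells Cxcl10 had 30, 6 and 53 UMIs in 5, 5 and 16 cells, of which the richest cell held 12, 2 and 11. The remaining members at least 2-fold higher in a class were also at low counts, namely Gbp4 in SGC-like cells at day 14 (4 to 21 UMIs), Iigp1 in myelinating Schwann-like cells at day 7 (11 to 38), Gbp2 in mural-like cells at day 7 (12 to 37) and Cxcl10 in neuron-like cells at day 14 (4 to 23). Each was the 1 member past 2-fold higher in its class and day, except that SGC-like cells at day 14 had both Gbp4 and Cxcl10, where 2.44% of all genes were past 2-fold higher in SGC-like cells, 1.06% in myelinating Schwann-like, 2.93% in mural-like and 6.94% in neuron-like cells on these days. Cxcl9 was the 1 such member in macrophage-like cells on both days, beside 9.74% and 11.4% of all genes.

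How the type I level was spread over single cells differed between classes. Per cell, taken over cells with at least 2000 UMIs, the median SGC-like cell was at 843, 610 and 598 CPM, and the cell at the 90th percentile at 5184, 1683 and 1487 CPM. The upper end of the cells was thus further apart between libraries than the middle. The tenth of all SGC-like cells with the most type I UMIs held 52.3% of the type I UMIs in the naïve library, 42.9% at day 7 and 36.3% at day 14. Neuron-like cells had medians of 470, 483 and 492 CPM and 90th percentiles of 2239, 999.6 and 974 CPM, so that the middle of the neuron-like cells was level while the upper end was not. These values rest on 117 of 129 naïve, 110 of 218 day 7 and 135 of 148 day 14 cells. All neuron-like cells had medians of 63705, 2014 and 78022 UMIs, so their percentiles were not compared at equal depth. Myelinating Schwann-like cells had medians of 355, 263 and 293 CPM with 90th percentiles of 1677, 887 and 889 CPM. In endothelial-like cells (3353, 2300 and 2131 CPM), macrophage-like cells (4051, 2264 and 1307 CPM) and non-myelinating Schwann-like cells (3122, 1025 and 972 CPM) the median cell itself was lower after injury. Fibroblast-like cells had medians of 667, 450 and 604 CPM. The median mural-like cell was higher after injury, at 292, 322 and 384 CPM, while the 90th percentile was lower, at 2356, 1847 and 1460 CPM. The mean over these mural-like cells was also lower after injury, at 1059, 859 and 655 CPM. Of all mural-like cells 24%, 19.8% and 18.3% held no type I UMI, so their median rests on very few UMIs per cell. Cells of 1 library are not replicates, and these percentiles carry no error.

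**Figure D5:**
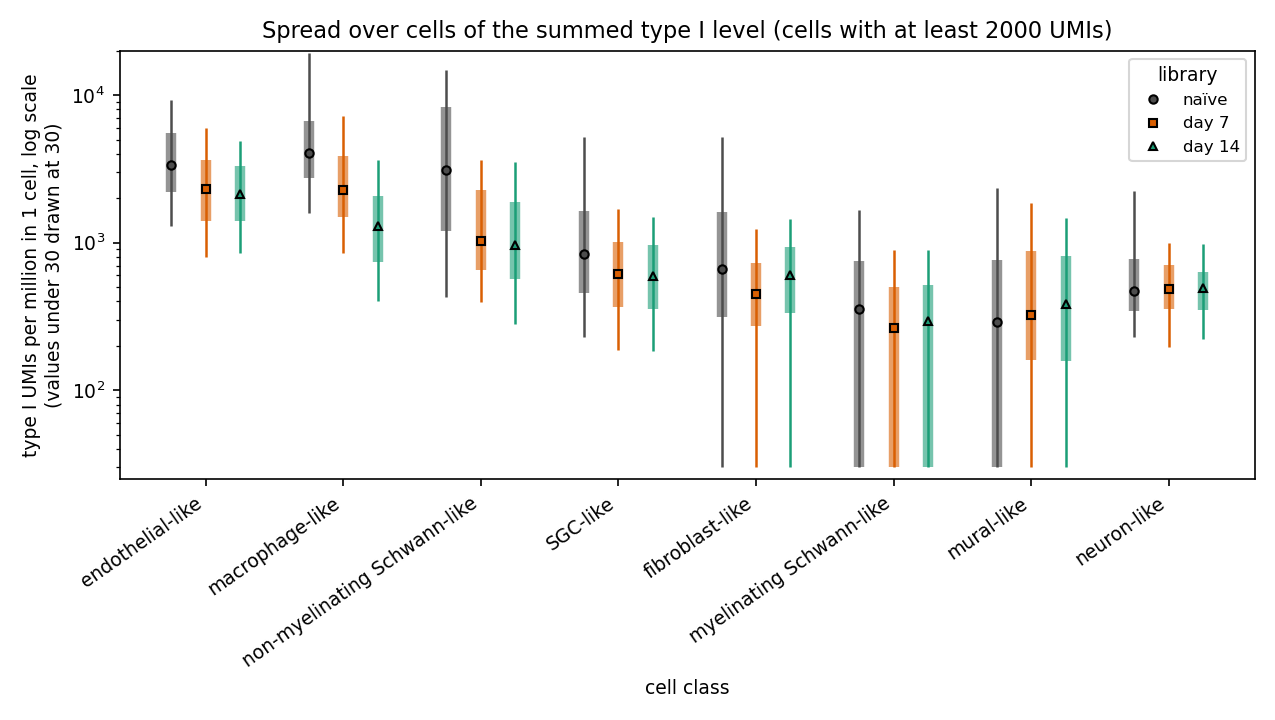
Type I level per cell in 8 classes and 3 libraries, as CPM of the cell on a log axis, for cells with at least 2000 UMIs, with points at the median, thick bars over the middle 50% of cells and lines from the 10th to the 90th percentile. The naïve lines of SGC-like and neuron-like cells reach highest at the upper end (5184 and 2239 CPM), whereas in endothelial-like, macrophage-like and non-myelinating Schwann-like cells the medians are also apart.

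The share of cells with at least 3 different type I genes detected needed cells of equal depth, since naïve cells were shallower. Without thinning the share in SGC-like cells was 61.8%, 63.5% and 63.7%. With each cell thinned to 2000 UMIs, which kept 752, 509 and 679 SGC-like cells, it was 29.7%, 15.3% and 14.3%. The thinned share was 84.3%, 65.6% and 66.2% in endothelial-like cells, 85.0%, 61.2% and 41.5% in macrophage-like cells, and 10.9%, 4.49% and 4.17% in myelinating Schwann-like cells. In all 4 classes the naïve share was the highest.

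Between the injury days, which do not involve the naïve library, the type I level was lower at day 14 in 5 of 8 classes. The macrophage-like ratio was the lowest at -0.93 (-1.01 to -0.85), and 15 of 34 members were at least 2-fold lower at day 14 than at day 7, beside 2.17% of all genes. The SGC-like ratio was -0.21. In neuron-like cells 10 of 33 members were at least 2-fold higher at day 14 than at day 7, beside 3.02% of all genes, but the day 7 neuron-like class rested on few deep cells: 161 of its 218 cells had under 10000 UMIs and held 5.32% of the UMIs. With cells of at least 10000 UMIs only, the summed type I level of neuron-like cells was 897, 603 and 625 CPM.

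The interferons themselves were almost undetected. Of 21 interferon genes in the matrices 3 had any UMI, the 18 type I genes together had 2 UMIs (Ifnk 1 at day 7 and Ifnab 1 at day 14), and Ifng had 0, 3 and 2 UMIs. A count of 0 allows up to 3 counts in the library, so that interferon transcripts were not detectable at this depth, which does not show their absence. The receptors were not at least 2-fold lower in any class where they had enough UMIs. Ifnar1 was at 39.4, 43.2 and 46.2 CPM in SGC-like cells and at 126, 196 and 228 CPM in macrophage-like cells, and Ifnar2 at 45.5, 44.1 and 44.8 CPM in SGC-like cells. Jak1 held its level in SGC-like cells at 116, 112 and 121 CPM.

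Socs3, a feedback inhibitor induced by cytokines that signal through Stat3, was the opposite of the interferon genes, at 9.57, 18.3 and 23.5 CPM over all classes and 14.6, 16.2 and 29.0 CPM in SGC-like cells. Tlr7, the endosomal sensor of single-stranded RNA, was at 49.4, 124 and 124 CPM in macrophage-like cells (9, 132 and 138 UMIs). Of other interferon-inducible genes that are not members, 3 of 22 tested in SGC-like cells at day 7 and 5 of 24 at day 14 were at least 2-fold lower, beside 0.828% and 0.981% of all genes. In macrophage-like cells it was 4 of 36 and 19 of 35 (all genes, 3.89% and 4.48%), and in endothelial-like cells 3 of 34 and 2 of 36 (1.66% and 1.63%). Among them Ifitm3, which blocks virus entry, was at 647, 376 and 386 CPM in SGC-like cells and at 1810, 995 and 441 CPM in macrophage-like cells. Rsad2 (viperin) was at 992, 863 and 948 CPM in endothelial-like cells, lowest at day 7 but not 2-fold lower. It was at least 2-fold lower in myelinating Schwann-like, fibroblast-like and macrophage-like cells on both days and in neuron-like cells at day 7.

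The genes whose level was most like that of the summed type I genes over the 24 points of class and library, among 10921 genes, were Psmb10 (Pearson r 0.930), Dtx3l (0.920), Psme2 (0.896), Gm4951 (0.880), Gbp5 (0.872), H2-D1 (0.870), Rnf213 (0.865), Ifi47 (0.862), H2-Q4 (0.855) and Zc3hav1 (0.852), computed on log2(CPM + 1). With each class centred on its own mean, so that only the libraries differ, they were Rnf213 (0.969), Hsp90ab1 (0.941), Atp5k (0.921), Cwc15 (0.918), Hsph1 (0.916), Gm4951 (0.908), Fkbp4 (0.905), Ube2n (0.893), Dnajb1 (0.886) and Hspa8 (0.885). The points share 3 libraries, and the correlations describe them only. Several genes of the second list (Hsp90ab1, Hsph1, Dnajb1, Hspa8 and Fkbp4) are heat-shock genes or their partners.

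Values of another kind moved with the libraries. A list of 6 heat-shock genes (Hspa1a, Hspa1b, Hspb1, Hsph1, Dnajb1 and Hspa8), chosen after their values were seen, was at 2149, 1404 and 1160 CPM in SGC-like cells, 3624, 1998 and 1546 CPM in endothelial-like cells and 2945, 1659 and 1017 CPM in macrophage-like cells. It was highest in the naïve library in 7 of 8 classes, and in neuron-like cells the sum was at 1568, 1495 and 1653 CPM. The genes of the list differed there. Hsph1 (223, 159 and 172 CPM), Dnajb1 (73.1, 49.4 and 44.5 CPM), Hspa1a and Hspa1b were highest in the naïve library. Hspb1 (182, 218 and 254 CPM) and Hspa8 (1034, 1034 and 1135 CPM) were highest at day 14. The 8 macrophage markers were at 7.87, 19.2 and 62.3 CPM in SGC-like cells against 17292, 18118 and 16375 CPM in macrophage-like cells. Over all cells used, the naïve library had the lowest median of UMIs (3059, 3972 and 4174), but in neuron-like cells the medians were 63705, 2014 and 78022. Macrophage-like cells made up 2.21%, 8.11% and 6.82% of cells, and a class total can also change through which cells of it were captured. The part of these values in the lower interferon genes was not tested.

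The 5 genes with the lowest ratios in SGC-like cells at day 7 were Trim30a, Ifi44, Zbp1, Gm17477 and Tle6, and at day 14 Irf7, Ifi44, Isg15, Wfdc18 and Gm35360. Of these 10 names 5 are members, Ifi44 on both days, and Trim30a is itself interferon-inducible. At the other end at day 14 stood Cx3cr1, Adgre1, Ms4a7, Laptm5 and Cd52, which macrophages express. In endothelial-like cells the lowest were Igdcc3, Cxcl10, Hpgd, Arhgap24 and Sulf1 at day 7 and Stc1, Fabp4, Hspa1a, Hspa1b and Adgrg3 at day 14, with 1 member between them. The highest there at day 14 were Chl1, Chn1, Fxyd7, Ptprz1 and Ccl5. Members thus stood among the lowest genes in SGC-like cells more than in endothelial-like cells, a difference that was not tested.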

How the data were processed

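DRG cells were profiled in 3 droplet libraries (1 naïve, 1 at day 7 and 1 at day 14 after SNI). The authors deposited raw UMI counts per gene and cell barcode, made with Cell Ranger 3.0.2 on mm10 per the submitters' processing notes, and the gene annotation is not given in the sources used here. Barcodes of the 3 matrices were kept from 500 genes up and to a maximum of 20% mitochondrial UMIs, and Scrublet in scanpy 1.11.5 at an expected rate of 5% marked 90 of 9662 cells (0.931%) as doublets, which were removed. Cells were gated by the mean scaled level of marker lists, with at least 3 markers detected and a lead of 0.05 over the next class, and 359 cells (3.75%) had no class. Leiden clustering (33 clusters) put 95.0% of cells in the same class. Slc1a3, Gja1, Ncam1 and Mfap5 were the markers not highest in their own class. The authors' deposited object and its annotation were not used here.

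Counts were summed per class and library and divided by the class total. Ratios carry exact conditional binomial 95% intervals, and 2-fold calls need at least 20 UMIs over both libraries. No test was run, since a condition has 1 library. In data simulated from the SGC-like counts (day 7 over naïve) 200 of 200 genes changed 4-fold were recovered with the right direction, and 112 of 11213 unchanged genes passed 2-fold. The changed genes were drawn from those with at least 50 naïve UMIs, and only counting noise was simulated. Recovery of smaller changes or of genes with fewer UMIs was not checked. Members, pathway lists and comparisons were chosen with earlier results of these data known. Values per library are given for members with the most UMIs and the leading members of each class. Genes that are no members are the 10 most correlated, the 5 highest and 5 lowest in 2 classes, and pathway-list genes. Some results of this rule, among them the highest genes at day 7, are not reported here. The alternatives were other filters, gates, clusters in place of the gate, TMM scaling (edgeR 4.0.16), a mean over cells and leaving out single genes or near-identical copies.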

Additional observations from a re-analysis of the deposited data

Results flagged for a closer look

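The ratio of Ifi27 over the naïve library was above 0 in neuron-like cells (0.17 at day 7 and 0.29 at day 14, log2) and below 0 in SGC-like cells (-0.39 and -0.58), myelinating Schwann-like cells (-0.71 and -0.65), endothelial-like cells (-0.38 and -0.34) and mural-like cells (-0.66 and -0.53). It was picked out because the counting intervals lay on opposite sides of 0 on both days. With TMM scaling, or in cells of at least 10000 UMIs, the neuron-like interval at day 7 took in 0. The difference between the classes was not tested, since each class has 1 library per condition.

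The 113 naïve, 81 day 7 and 165 day 14 cells that fell in no class entered no comparison. Their summed type I level was 3868 CPM in the naïve library, 1062 CPM at day 7 and 1068 CPM at day 14, above the level over all classes (1597, 994 and 875 CPM), and the naïve library was again the highest.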

How the results depend on the processing

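All 164 alternative values of the type I ratios in the 8 classes stayed below 0 (from -2.35 to -0.22), as did 133 of 148 for the GTPases. The GTPases of mural-like cells at day 7 changed sign, from 0.39 to -0.46 with the stricter gate, and those of neuron-like cells at day 14, whose interval took in 0, went from 0.05 to -0.02 with no cell filter and with TMM and to -0.13 as a mean over cells. No paired analysis was possible because a single library stands for each condition. Of the type I log2 ratios, 22 of 82 values moved beyond the counting interval in the SGC-like, myelinating Schwann-like, endothelial-like and macrophage-like cells, given here, and 19 of 82 in the other 4 classes. In SGC-like cells the day 7 ratio was -1.15 with the stricter cell filter (17 cells in the smallest library), -0.91 with no cell filter, -1.12 as a mean over cells, -1.18 without the member with the most UMIs, and -1.12 without cells that held a macrophage marker UMI, and the day 14 ratio was -1.14 with the stricter filter (14 cells), -1.29 as a mean over cells and -1.40 without the most abundant member. In myelinating Schwann-like cells it was -1.12 at day 7 and -1.11 at day 14 with the stricter gate, -1.03 and -0.96 as a mean over cells, -1.38 on both days without the most abundant member, and -1.30 at day 14 with the stricter filter. In endothelial-like cells at day 14 it was -0.77 as a mean over cells and -0.72 without near-identical copies. In macrophage-like cells it was -0.57 at day 7 and -1.52 at day 14 with TMM, and at day 14 -1.93 with the stricter filter, -1.59 as a mean over cells and -1.60 without the most abundant member. TMM moved all ratios of macrophage-like cells up by 0.21 and 0.20, those of non-myelinating Schwann-like and fibroblast-like cells at day 14 by 0.13 and 0.12, and those of every other class by less than 0.1. Thinning to 2000 UMIs took the share of cells with 3 type I genes to 29.7%, 15.3% and 14.3% (SGC-like), 65.6% and 66.2% after injury (endothelial-like) and 85.0%, 61.2% and 41.5% (macrophage-like). With at least 50 UMIs instead of 20, 39 genes instead of 95 were 2-fold lower and 47 instead of 175 higher in SGC-like cells at day 7, and 64 instead of 115 and 92 instead of 286 at day 14, where fewer genes were tested. Ifi27 in neuron-like cells stayed above 0, at 0.12 and 0.21 with TMM and 0.12 and 0.29 with cells of at least 10000 UMIs, but its day 7 interval took in 0 under both (-0.02 to 0.26 in each). The neuron depth limit and the steps on macrophage marker cells and on the richest Cxcl10 cell were chosen after seeing the data.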
